A study of Clytia hemisphaerica and Astroides calycularis and Pocillopora acuta with 17 samples.

Results

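Expression of 2 transporter genes, VGAT (XLOC_033747) and BGT-1 (XLOC_030751), was followed through single cells of the planula, the ciliated larva of the hydrozoan jellyfish Clytia hemisphaerica. Both genes were taken by their identifiers from 18761 features, and both were among the 17841 genes found in at least 3 cells. The Clytia cells came from 6 count matrices of 4 biological samples. The 66 hpf sample (hours postfertilization) and the 52 hpf sample were whole planulae of the Z strain, of 2 fertilizations from 1 batch of medusae, each dissociated once, fixed in ACME (acetic acid and methanol) and captured in 2 technical replicates. The ACME sample, with 5 captures pooled in 1 matrix, and the methanol sample, named for its fixation, were earlier preparations of planulae whose age the labels do not give. Both age samples pooled many larvae raised from mixed gametes of male and female medusae. The 66 hpf and 52 hpf groups hold 1 biological sample each, and comparisons between them are therefore given with no test. A last comparison used planula cells of the coral Pocillopora acuta, from 1 matrix of colony C3 and 2 technical replicates of colony C6. These aquarium colonies share a genotype, their larvae carried symbiotic dinoflagellates, and the releases were of different months.

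In animals in which it has been studied, VGAT loads GABA and glycine into synaptic vesicles by proton exchange and defines inhibitory neurons. BGT-1, named SLC6A12 in mammals, carries GABA and betaine across the cell membrane together with sodium and chloride. The Clytia genes bear these names by sequence similarity, with a transmembrane amino acid transporter domain in VGAT and the sodium:neurotransmitter symporter family in BGT-1, and what they carry was not measured. The study listed both genes as markers of the aboral HFRIamide neurons, sensory-type nerve cells that make a precursor of HFRIamide neuropeptides. Their high level in such cells is thus a description here and not a test.

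The filters kept 15372 of 19087 barcodes, with 5355639 to 17336231 unique molecular identifiers (UMIs, 1 per captured RNA molecule) in a matrix and medians of 941 to 1643 UMIs per cell. Pairs of libraries shared 0 to 5 barcodes. After 1 cluster of 1006 cells without a unique marker was left out, 14366 cells formed 29 clusters, of which 7 types took names from marker lists that exclude VGAT and BGT-1. A single cluster of 122 cells raised 13 of 13 naming genes of HFRIamide neurons and is called HFRIamide-like. It held 49 cells at 66 hpf, 30 at 52 hpf, 33 in the ACME sample and 10 in the methanol sample, or 0.849% of all cells. Intervals given below are exact 95% Poisson or binomial intervals and cover counting error only. The limit given for a share of 0 is 3 cells of the total and bounds the cells with a UMI, not the cells that express the gene.

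Both transporters were rare transcripts of the whole larva. VGAT gave 62 UMIs at 66 hpf, 32 at 52 hpf, 72 in the ACME sample and 17 in the methanol sample. As counts per 1000000 UMIs of the kept cells (CPM) these were 2.98 at 66 hpf, 2.48 at 52 hpf, 4.15 in the ACME sample and 3.17 in the methanol sample. A VGAT UMI was found in 32, 16, 38 and 9 cells in the same order of samples, 95 cells or 0.618% (0.5003 to 0.755%) in all. BGT-1 gave 89 UMIs at 66 hpf, 20 at 52 hpf, 42 in the ACME sample and 16 in the methanol sample. Its levels were 4.28, 1.55, 2.42 and 2.99 CPM in that order, in 36, 13, 22 and 9 cells, 80 cells or 0.520% (0.413 to 0.647%) in all. For VGAT the intervals of neighbouring samples overlapped throughout, from 1.69 to 3.50 CPM at 52 hpf and from 3.25 to 5.23 CPM in the ACME sample at the ends of the order. For BGT-1 the interval at 66 hpf, 3.44 to 5.27 CPM, lay above those at 52 hpf (0.945 to 2.39 CPM) and in the ACME sample (1.75 to 3.27 CPM) and overlapped that of the methanol sample.

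The UMIs of both genes came mostly from the HFRIamide-like cells. These cells held 131 VGAT UMIs, 71.6% of those in all clustered cells, and 144 BGT-1 UMIs, 87.3%. VGAT had 283 CPM at 66 hpf, 152 CPM at 52 hpf, 320 CPM in the ACME sample and 350 CPM in the methanol sample, against 0.748, 0.402, 1.37 and 1.74 CPM in all other cells of the same samples. Its mean over samples was 276 ± 87.5 CPM (SD, n = 4) in the HFRIamide-like cells. BGT-1 had 476 CPM at 66 hpf, 95.4 CPM at 52 hpf, 235 CPM in the ACME sample and 525 CPM in the methanol sample, against 0.449, 0.241, 0.356 and 0.579 CPM in all other cells. Its mean in the HFRIamide-like cells was 333 ± 203 CPM (SD, n = 4). For both genes the 4 samples of HFRIamide-like cells lay above all samples of other cells, with no overlap. This is a description, and the share of all genes without such overlap is not given here. Fitted by edgeR on summed UMIs with the sample as a block, the log2 fold change of HFRIamide-like over other cells was 7.89 for VGAT (SE 0.42) and 9.27 for BGT-1 (SE 0.46). By this fold BGT-1 ranked 4 and VGAT ranked 15 of 11976 genes fitted. The 13 naming genes had log2 fold changes of 6.39 to 9.94 with a median of 8.22, beside a median of -0.73 over all genes, and BGT-1 lay above that median and VGAT just below it.

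**Figure D1:**
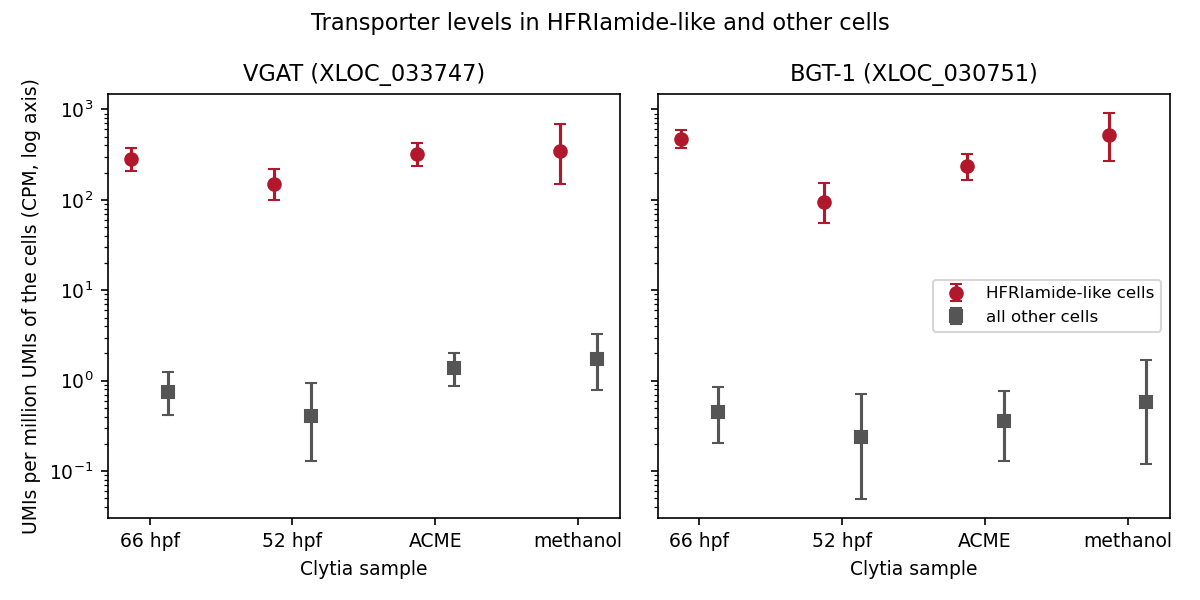
Levels of VGAT (left) and BGT-1 (right) in CPM on a log axis, with HFRIamide-like cells as circles and all other cells as squares for each Clytia sample, and bars for exact 95% Poisson intervals. HFRIamide-like cells sit between 152 and 350 CPM for VGAT and between 95.4 and 525 CPM for BGT-1, while other cells stay at or below 1.74 CPM.

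Detection of a UMI in a cell was incomplete even in the HFRIamide-like cells. VGAT was found in 19 of 49 cells at 66 hpf, 11 of 30 at 52 hpf, 16 of 33 in the ACME sample and 1 of 10 in the methanol sample, together 47 of 122 cells or 38.5% (29.9 to 47.8%). BGT-1 was found in 27 of 49, 11 of 30, 16 of 33 and 5 of 10 cells in the same order, together 59 of 122 cells or 48.4% (39.2 to 57.6%). In mucous-like cells, secretory cells taken as a type that should lack both, VGAT was found in 0 of 286 cells, which allows a share of up to 1.05%, and BGT-1 in 1 of 286 cells (0.350%). The median depth was 3271 UMIs in the HFRIamide-like cells and 1665.5 UMIs in the mucous-like cells. Thinned to 500 UMIs each, 11 of 109 HFRIamide-like cells kept a VGAT UMI (10.1%) and 22 of 109 kept a BGT-1 UMI (20.2%), against 9 and 5 of 11922 other cells. Among the HFRIamide-like cells with VGAT, 18 held 1 UMI, 10 held 2 and 19 held 3 or more, up to 13. For BGT-1 the corresponding numbers were 22, 17 and 20 cells, up to 9 UMIs. Elsewhere 45 of 48 cells with VGAT and 17 of 19 cells with BGT-1 held a single UMI. The methanol value for VGAT rested on 1 cell, which held all 8 UMIs.

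Detection varied with the depth of a cell. Among the HFRIamide-like cells ordered by depth, the shallowest 41 (301 to 2031 UMIs) had VGAT in 7.32%, the middle 41 in 41.5% and the deepest 40 (4380 to 42416 UMIs) in 67.5%. The same 3 sets of cells had BGT-1 in 19.5, 63.4 and 62.5%. As a level, VGAT was 87.5 CPM in the shallowest cells (18.1 to 256), 287 CPM in the middle cells (203 to 394) and 255 CPM in the deepest cells (205 to 313). BGT-1 was 496 CPM in the shallowest cells (289 to 794), 416 CPM in the middle cells (313 to 541) and 204 CPM in the deepest cells (159 to 257). The BGT-1 level per UMI was thus lower in the deepest cells, whose interval did not overlap those of the others, and the VGAT intervals overlapped in all 3 sets. The sets mix samples, and the 52 hpf cells had a median of 4407.5 UMIs and the lowest BGT-1 level of the samples, 95.4 CPM. The deepest set also holds a 52 hpf cell of 42416 UMIs without a UMI of BGT-1. Depth and sample were thus not separated here. The HFRIamide-like cells are not replicates, and no test was made.

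Both transporters had a higher summed level in HFRIamide-like cells of the 66 hpf sample than of the 52 hpf sample, and the size of the gap varied between libraries. BGT-1 had 409 and 549 CPM in the 2 replicates at 66 hpf, against 167 and 59.3 CPM in the 2 replicates at 52 hpf. The ratio of 66 hpf over 52 hpf was 4.99 (2.93 to 9.0). VGAT had 222 and 349 CPM in the replicates at 66 hpf, against 317 and 67.7 CPM at 52 hpf, a ratio of 1.87 (1.14 to 3.12). The VGAT values of the replicates overlap across ages and the BGT-1 values do not, and the 2 replicates at each age are technical. The share of HFRIamide-like cells with a UMI was 55.1% (40.2 to 69.3%) at 66 hpf and 36.7% (19.9 to 56.1%) at 52 hpf for BGT-1, and 38.8% and 36.7% for VGAT. The deepest cell of the type, a 52 hpf cell with 42416 UMIs, 838 UMIs of the HFRIamide precursor and 9 of 13 naming genes, held neither transporter. Without it, a choice made after seeing the data, the ratios were 3.80 for BGT-1 (2.23 to 6.85) and 1.42 for VGAT (0.869 to 2.38). With each cell thinned to 500 UMIs, BGT-1 had 609 CPM at 66 hpf (333 to 1021) and 345 CPM at 52 hpf (112 to 805), and VGAT had 348 CPM at 66 hpf (150 to 685) and 69.0 CPM at 52 hpf (1.75 to 384). These rest on 14 and 5 UMIs of BGT-1 and on 8 and 1 of VGAT, the intervals overlap for both genes, and which gene has the larger gap depends on the thinning. Age cannot be told apart from differences between single preparations. In all other cells the ratio was 1.86 for each gene, from 15 VGAT UMIs at 66 hpf and 5 at 52 hpf and from 9 BGT-1 UMIs at 66 hpf and 3 at 52 hpf, with intervals that included 1.

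The other named types held few UMIs of either transporter. GLWamide-like cells, which make GLWamide neuropeptides, had 1 VGAT UMI and 0 BGT-1 UMIs in 177 cells. QYFamide-like cells, another neuropeptide type, had 1 VGAT UMI and 2 BGT-1 UMIs in 211 cells, both BGT-1 UMIs in 1 cell. Neurosecretory-like cells, a gland-like neural type marked by BETAP_1, had 4 VGAT UMIs in 3 of 411 cells and 1 BGT-1 UMI. Nk2d-like cells, 2 clusters named after a list headed by the homeobox gene Nk2d, itself found in 44 of 641 of these cells, had 5 VGAT UMIs in 4 cells and 0 BGT-1 UMIs. In i-cell-like cells, the stem cells of hydrozoans, 10 VGAT UMIs and 2 BGT-1 UMIs were found in 1473 cells with a median of 9552 UMIs. For cells with a BGT-1 UMI the limits that counts of 0 allow are 1.69% of GLWamide-like and 0.468% of Nk2d-like cells, whose median depths were 1452 and 1518 UMIs.

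Each of these types was compared with all cells outside it and outside the HFRIamide-like cells by edgeR's quasi-likelihood test over the 4 samples, with the sample as a block and Benjamini-Hochberg adjustment. In each of the 6 types 0 of 2 members were called at an adjusted p under 0.05. Of all genes tested, 25.7% were called in GLWamide-like, 34.5% in QYFamide-like, 26.7% in neurosecretory-like, 43.9% in Nk2d-like, 67.0% in i-cell-like and 23.6% in mucous-like cells. Only VGAT had enough UMIs for the filter on low counts, and only in 2 types. In neurosecretory-like cells it had 0 CPM at 66 hpf, 3.72 CPM at 52 hpf, 9.70 CPM in the ACME sample and 0 CPM in the methanol sample, a log2 fold change of 2.24 (SE 1.16, adjusted p = 0.146, edgeR). In Nk2d-like cells it had 3.58 CPM at 66 hpf, 3.1 CPM at 52 hpf, 0 CPM in the ACME sample and 21.7 CPM in the methanol sample, a log2 fold change of 1.72 (SE 1.04, adjusted p = 0.181, edgeR). At an unadjusted p under 0.05 edgeR as described gave 0 of these results and DESeq2 gave 1, VGAT in neurosecretory-like cells. Other settings of edgeR gave unadjusted p of 0.024 to 0.046 for VGAT in neurosecretory-like cells (no low-count filter, each matrix as a sample, another clustering resolution, or without the 66 hpf sample) and of 0.032 in Nk2d-like cells without the ACME sample. With no filter, each type gave a value for both genes, and the lowest adjusted p for BGT-1 was 0.268 by edgeR. These folds rest on 4 and 5 VGAT UMIs in the type, and a p that misses the threshold does not show that the levels were alike.

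**Figure D2:**
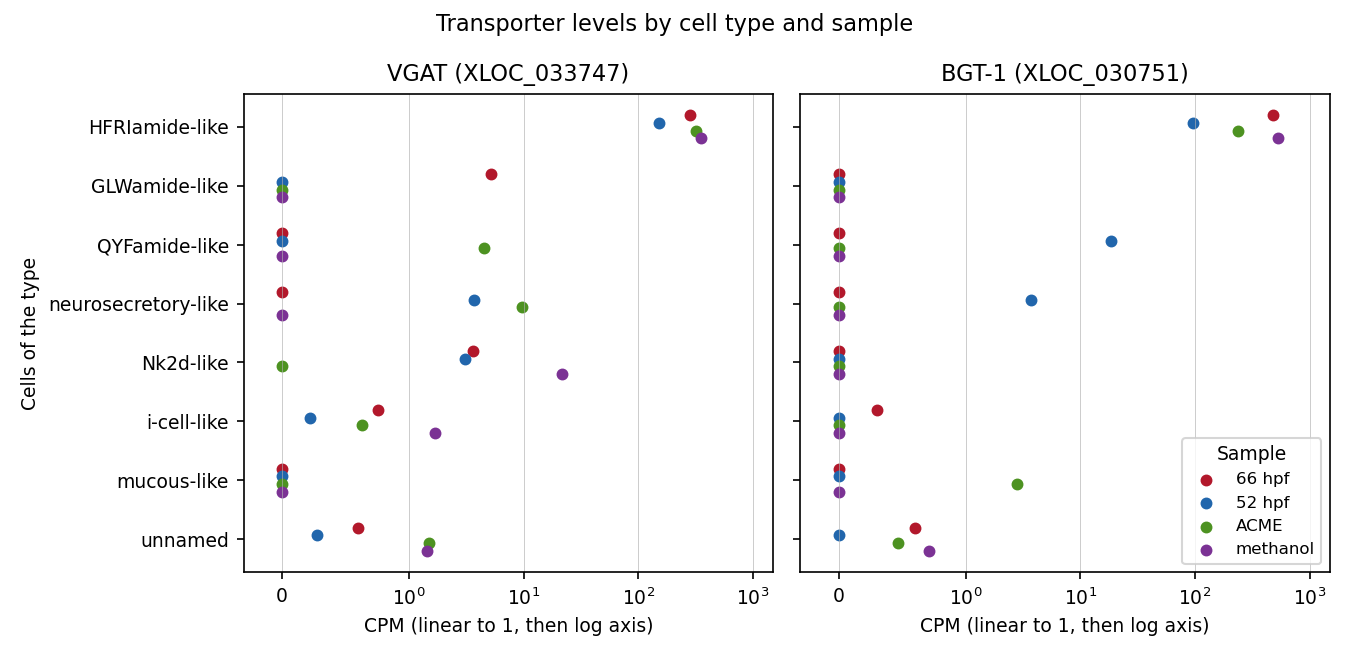
CPM of VGAT (left) and BGT-1 (right) in each named type and in the unnamed clusters, with 1 point per sample on an axis that is linear up to 1 and logarithmic above. HFRIamide-like cells lie at 95.4 to 525 CPM, and the other types lie between 0 and 21.7 CPM, the value of VGAT in the methanol sample of Nk2d-like cells.

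Outside the HFRIamide-like cluster, 8 of 28 clusters had no VGAT UMI and 15 of 28 had no BGT-1 UMI. The highest VGAT level outside was 62.9 CPM in unnamed cluster 28, from 1 UMI in 19 cells. That cluster raised 4 of 13 naming genes of HFRIamide neurons at a median of 481 UMIs per cell and stayed unnamed. The highest BGT-1 level outside was 3.90 CPM in QYFamide-like cells. A single cell outside the type held both transporters, in unnamed cluster 19 at 66 hpf. With 30407 UMIs, 3 of VGAT, 2 of BGT-1, 79 of the HFRIamide precursor, 5 of TauDa, 11 of TauDb and 9 of 13 naming genes, it carried the genes of HFRIamide-like cells at a depth far above the median of 1183 UMIs in its cluster, and no doublet caller was run. Whether it is a doublet was not tested. In the cluster left out before naming, 0 VGAT UMIs and 2 BGT-1 UMIs were found in 1006 cells.

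Each transporter was also set against the HFRIamide precursor. Per 1000 UMIs of the HFRIamide precursor, VGAT gave 4.63 UMIs (3.87 to 5.49) in HFRIamide-like cells and 24.4 UMIs (18.2 to 32.0) in other cells. BGT-1 gave 5.09 UMIs (4.29 to 5.99) in HFRIamide-like cells and 9.85 UMIs (6.10 to 15.1) in other cells. The VGAT ratio was higher in other cells in each sample, at 22.3 against 7.01 at 66 hpf, 18.3 against 2.26 at 52 hpf, 23.3 against 5.35 in the ACME sample and 45.9 against 16.9 in the methanol sample, and only the methanol intervals overlapped. For BGT-1 the ratio was higher in other cells at 66 hpf, at 52 hpf and in the ACME sample, with intervals that overlapped in each of these samples, at 52 hpf only at their ends (2.27 to 32.1 against 0.828 to 2.28), and lower in the methanol sample (15.3 against 25.3). The part of free RNA in the UMIs of other cells was not tested. Of the 48 other cells with VGAT, 4 held the HFRIamide precursor (8.33%, 2.32 to 19.98%), against 6.80% of other cells without VGAT, at median depths of 2416 and 1455 UMIs.

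VGAT and BGT-1 were found together in more cells than their shares give, though most cells with VGAT held no BGT-1 UMI. Both are listed markers of the same type, so this excess over all cells is a description. Over all 15372 kept cells 40 held both, where the product of their shares gives 0.494 cells, and all but 1 of these 40 were HFRIamide-like. BGT-1 was found in 42.1% of VGAT cells (32.0 to 52.7%), against 0.262% of cells without VGAT. Within the HFRIamide-like cells 39 held both, 8 held VGAT alone, 20 held BGT-1 alone and 55 held neither. BGT-1 was thus found in 83.0% (69.2 to 92.4%) of HFRIamide-like cells with VGAT and in 26.7% of those without. The cells with both numbered 16 at 66 hpf, 9 at 52 hpf, 13 in the ACME sample and 1 in the methanol sample, where the shares within the type give 10.5, 4.03, 7.76 and 0.5. Depth moved with these classes, with median UMIs of 4639 in cells with both, 6009 with VGAT alone, 2648 with BGT-1 alone and 1048 with neither.

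**Figure D3:**
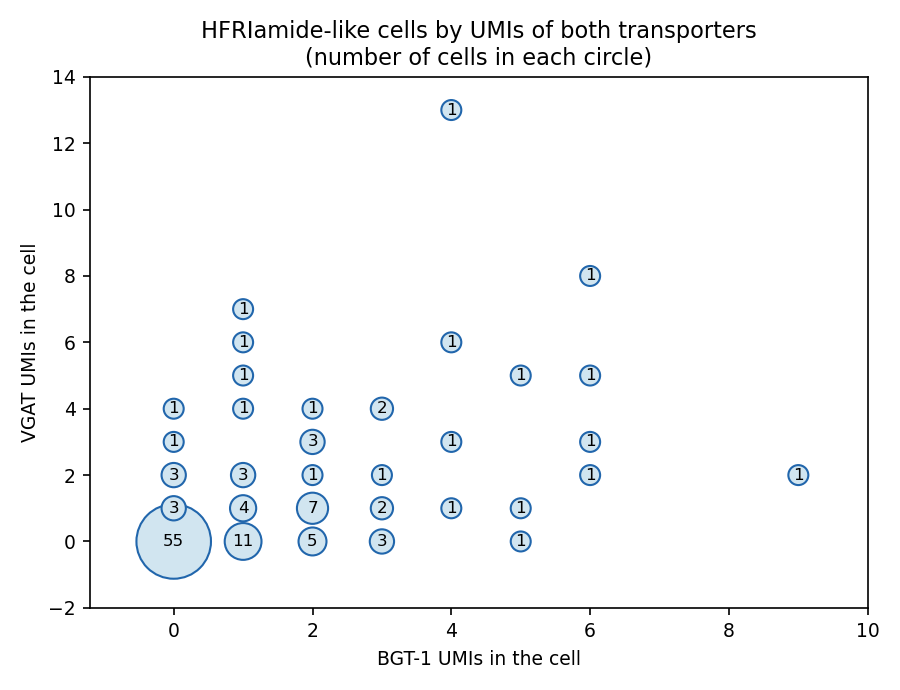
The 122 HFRIamide-like cells by their UMIs of BGT-1 (horizontal axis) and VGAT (vertical axis), with the number of cells printed in each circle and a larger circle for more cells. The 55 cells with neither sit at the origin, 39 cells have at least 1 UMI of both, and the highest counts are 13 for VGAT and 9 for BGT-1.

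Low depth was not shared by all cells with neither transporter. At 52 hpf the 17 cells with neither had a median of 3809 UMIs and 640 precursor UMIs, against 6662 UMIs and 132 precursor UMIs in the 9 cells with both. In the ACME sample the 14 cells with neither had medians of 495 UMIs and 1.5 precursor UMIs, against 7508 and 167 in the 13 cells with both. At 66 hpf the medians were 1103 and 41 in 19 cells with neither, against 4096.5 and 74 in 16 cells with both. The 52 hpf sample thus held HFRIamide-like cells rich in precursor UMIs in which neither transporter was found.

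UMIs were then summed per sample over the HFRIamide-like cells with and without a UMI of the other transporter, to give levels per UMI. Cells with BGT-1 were deeper, at a median of 3960 UMIs against 1445 without, and of 5909.5 against 615 in the ACME sample. The split thus also sorted cells by depth, and these levels are not set apart from it. VGAT had 338 CPM at 66 hpf, 346 CPM at 52 hpf, 410 CPM in the ACME sample and 442 CPM in the methanol sample in cells with BGT-1, against 147, 43.6, 92.5 and 0 CPM in cells without BGT-1. The sample values of the groups did not overlap, but the counting intervals did at 66 hpf (241 to 460 against 59.3 to 304 CPM). They also overlapped in the methanol sample, with 8 UMIs in 1 of 5 cells with BGT-1 and 0 UMIs in 5 cells without (0 to 782 CPM). VGAT was higher in the cells with BGT-1 by 2.61 log2 units (SE 0.44, adjusted p = 0.0035, edgeR over 4 samples), in a comparison in which 6.35% of 1023 genes were called. Without the sample as a block the log2 fold change was 2.54 and the adjusted p was 0.067. Among cells of 2000 UMIs or more, an alternative added after seeing the data, the log2 fold change was 2.32 (adjusted p = 0.0044, edgeR), over 3 samples.

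The reverse comparison gave the same direction with less certainty. BGT-1 had 523 CPM at 66 hpf, 220 CPM at 52 hpf and 289 CPM in the ACME sample in cells with VGAT, against 395, 18.2 and 76.8 CPM in cells without VGAT. The groups overlapped through the 66 hpf cells without VGAT, and each sample had more BGT-1 in its own cells with VGAT. The log2 fold change was 1.91 (SE 0.51, adjusted p = 0.0897, edgeR over 3 samples), and 0.459% of 1089 genes were called. The methanol sample had 1 cell with VGAT and was left out of this fit.

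**Figure D4:**
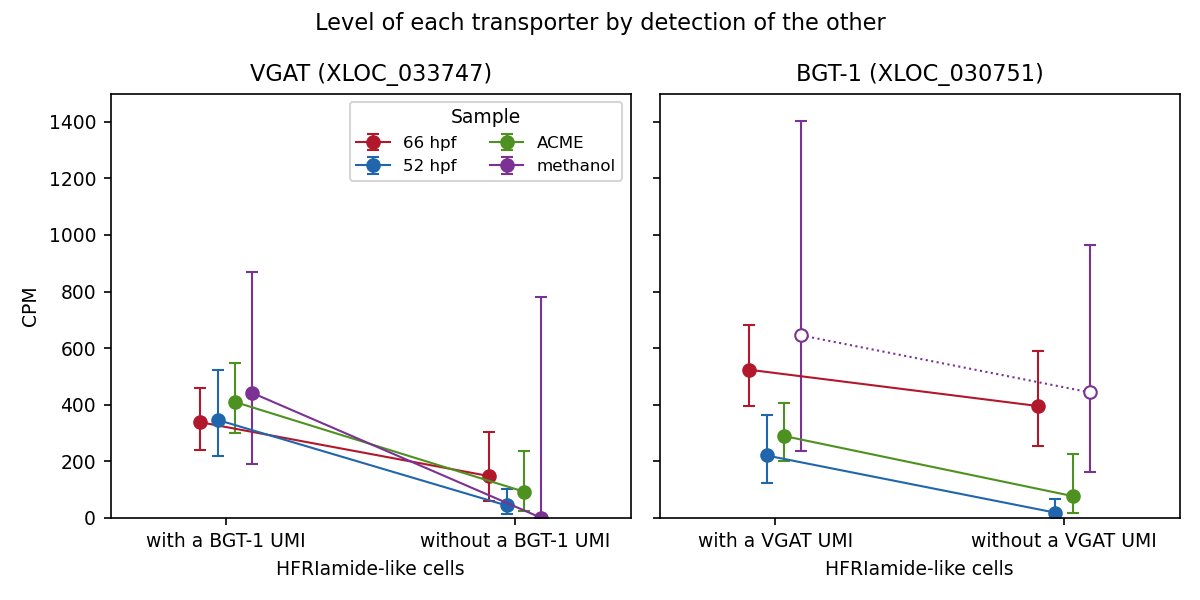
CPM of VGAT in HFRIamide-like cells with and without a BGT-1 UMI (left) and of BGT-1 in those with and without a VGAT UMI (right), with 1 line per sample and exact 95% Poisson intervals. VGAT lies at 338 to 442 CPM in cells with BGT-1 and at 0 to 147 CPM in cells without, and open symbols with a dotted line mark the methanol sample where 1 cell held VGAT.

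Other genes of HFRIamide neurons were compared across the same split by BGT-1. Of the 13 naming genes 11 were tested, 5 rose in cells with BGT-1, none fell and 6 did not pass, with a median log2 fold change of 1.09 beside -0.01 over all genes tested. Over all 1023 genes tested 65 were called (6.35%), 54 of them higher. The naming genes served to choose the cells, though not the split. Cells without BGT-1 were shallower, with a median of 1445 UMIs against 3960. Depth and BGT-1 detection were thus not separated in these rises. A receptor gene of the peptide GPCR group, XLOC_041592, had 1251 CPM at 66 hpf, 944 CPM at 52 hpf, 1192 CPM in the ACME sample and 883 CPM in the methanol sample in cells with BGT-1, against 695, 34.9, 46.3 and 0 CPM in cells without. It was found in 39 of 59 cells with BGT-1 and in 6 of 63 cells without, and its log2 fold change was 3.42 (SE 0.62, adjusted p = 0.0056, edgeR). TauDa (MSTRG.12764) and TauDb (XLOC_041385), dioxygenase genes of the TauD family, rose by 1.36 (adjusted p = 0.026, edgeR) and 1.74 (adjusted p = 0.0093, edgeR). The lipoxygenase gene XLOC_020526, of a family that oxidizes fatty acids, rose by 1.56 (adjusted p = 0.015, edgeR) and ROMT-like (XLOC_020007) by 1.57 (adjusted p = 0.0084, edgeR). Single cells carried part of these levels with BGT-1. For TauDa the highest cell held 223 of 539 UMIs in the ACME sample and 30 of 32 in the methanol sample. For ROMT-like it held 405 of 819 and 37 of 47 in the same samples. For the lipoxygenase it held 209 of 268 in the methanol sample. At 66 hpf and 52 hpf the highest cell held 21 of 145 and 14 of 95 TauDa UMIs. The lipoxygenase was found in 59 of 59 cells with BGT-1 and in 45 of 63 cells without.

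Some naming genes had lower levels in cells with BGT-1, and none of these passed the test. The HFRIamide precursor had 28638 CPM at 66 hpf, 33102 CPM at 52 hpf, 32884 CPM in the ACME sample and 18653 CPM in the methanol sample in cells with BGT-1, against 69851, 85983, 128385 and 28826 CPM in cells without. The level was lower with BGT-1 within each of the 4 samples, and the fitted log2 fold change was -0.83 (SE 0.46, adjusted p = 0.36, edgeR). Single cells carried much of the level without BGT-1. The highest cell held 3128 of 5551 precursor UMIs in the ACME sample and 132 of 136 in the methanol sample. At 66 hpf it held 1052 of 3315 and at 52 hpf 1243 of 9850. XLOC_002774, annotated as ARV1, had 5231 CPM at 66 hpf, 7174 CPM at 52 hpf, 15782 CPM in the ACME sample and 9492 CPM in the methanol sample in cells with BGT-1, against 52594, 58085, 48801 and 15897 CPM in cells without. It was thus lower with BGT-1 in each of the 4 samples, at a log2 fold change of -1.72 (SE 0.50, adjusted p = 0.065, edgeR). XLOC_030924 had 25.4, 0, 91.0 and 0 CPM in cells with BGT-1, against 232, 131, 162 and 212 CPM in cells without, in the same order of samples, at -1.94 log2 units (SE 0.74, adjusted p = 0.17, edgeR). BETAP_1 (XLOC_042849), a naming gene of neurosecretory-like cells, was called lower in cells with BGT-1 at -4.57 log2 units (adjusted p = 0.0033, edgeR), but 454 and 99 of its 565 UMIs in cells without BGT-1 came from 2 cells. Split by VGAT in place of BGT-1, all 13 naming genes were tested and 0 were called, with a median log2 fold change of 0.15 beside -0.08 over all genes. The same receptor gene XLOC_041592 had a log2 fold change of 3.1 with an adjusted p of 0.064 by edgeR in that split.

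Markers of neuropeptide cells were then counted in the cells with each transporter. Cells with the transporter were deeper, with medians of 5056 UMIs with VGAT and 2031 without, and of 3960 UMIs with BGT-1 and 1445 without, and the part of depth in the shares was not tested. The HFRIamide precursor was found in 47 of 47 HFRIamide-like cells with VGAT (92.5 to 100%) and in 64 of 75 without VGAT, and in 56 of 59 cells with BGT-1 and 55 of 63 without. TauDa was found in 47 of 47 cells with VGAT and in 62.7% of those without, and in 94.9% of cells with BGT-1 against 60.3% without. As a level TauDa (MSTRG.12764) had 999 CPM at 66 hpf, 1308 CPM at 52 hpf and 3639 CPM in the ACME sample in cells with VGAT, against 1465, 1281 and 4759 CPM in cells without, at a log2 fold change of 0.15 (adjusted p = 0.87, edgeR). TauDb was found in 83.0% of cells with VGAT against 48.0% without, and in 79.7% of cells with BGT-1 against 44.4% without. The precursor pp2 (XLOC_017096), which marks GLWamide-like cells, was found in 12 of 47 HFRIamide-like cells with VGAT (25.5%, 13.9 to 40.3%) against 8% of those without. For BGT-1 it was found in 13 of 59 cells (22.03%, 12.3 to 34.7%) against 7.94%. As a mean level over samples pp2 had 82.3 CPM in HFRIamide-like, 51434 CPM in GLWamide-like and 611 CPM in neurosecretory-like cells. By double in situ staining the study saw HFRIamide and GLWamide cells as distinct populations. In other cells without VGAT the pp2 share was 6.16%, and the log2 fold change of pp2 with BGT-1 was 3.04 (adjusted p = 0.063, edgeR). The other precursor of GLWamide-like cells, pp11, was in 0 of 122 HFRIamide-like cells, which allows a share of up to 2.46%.

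Other neuropeptide types shared few cells with the transporters. The precursors pp11, pp14 and pp8 were found in 0 of all 95 cells with VGAT, and among 80 cells with BGT-1 only pp14 was found, in 1. IPYFAN was in 2 VGAT cells and 3 BGT-1 cells, pp9 in 2 and 1, and Nk2d in 1 and 0. Among 19 other cells with BGT-1, BETAP_1 was found in 10 (52.6%, 28.9 to 75.6%), against 20.9% of other cells without BGT-1, at median depths of 3800 and 1457 UMIs. Of the neural genes, Synaptotagmin, a calcium sensor of vesicle release, was found in 78.7% of HFRIamide-like cells with VGAT against 50.7% without. ELAV-2, an RNA-binding protein of neurons, was found in 68.1% against 57.3%. With BGT-1 these shares were 74.6% against 49.2% for Synaptotagmin and 57.6% against 65.1% for ELAV-2. As a level ELAV-2 (XLOC_030971) had 162 CPM at 66 hpf, 102.9 CPM at 52 hpf and 281 CPM in the ACME sample in cells with VGAT, against 708, 327 and 870 CPM in cells without, lower in each sample while the share was higher. Its log2 fold change was -1.35 with VGAT (adjusted p = 0.071, edgeR) and -1.29 with BGT-1 (adjusted p = 0.063, edgeR), and neither ELAV-2 nor Synaptotagmin passed the test in either split.

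**Figure D5:**
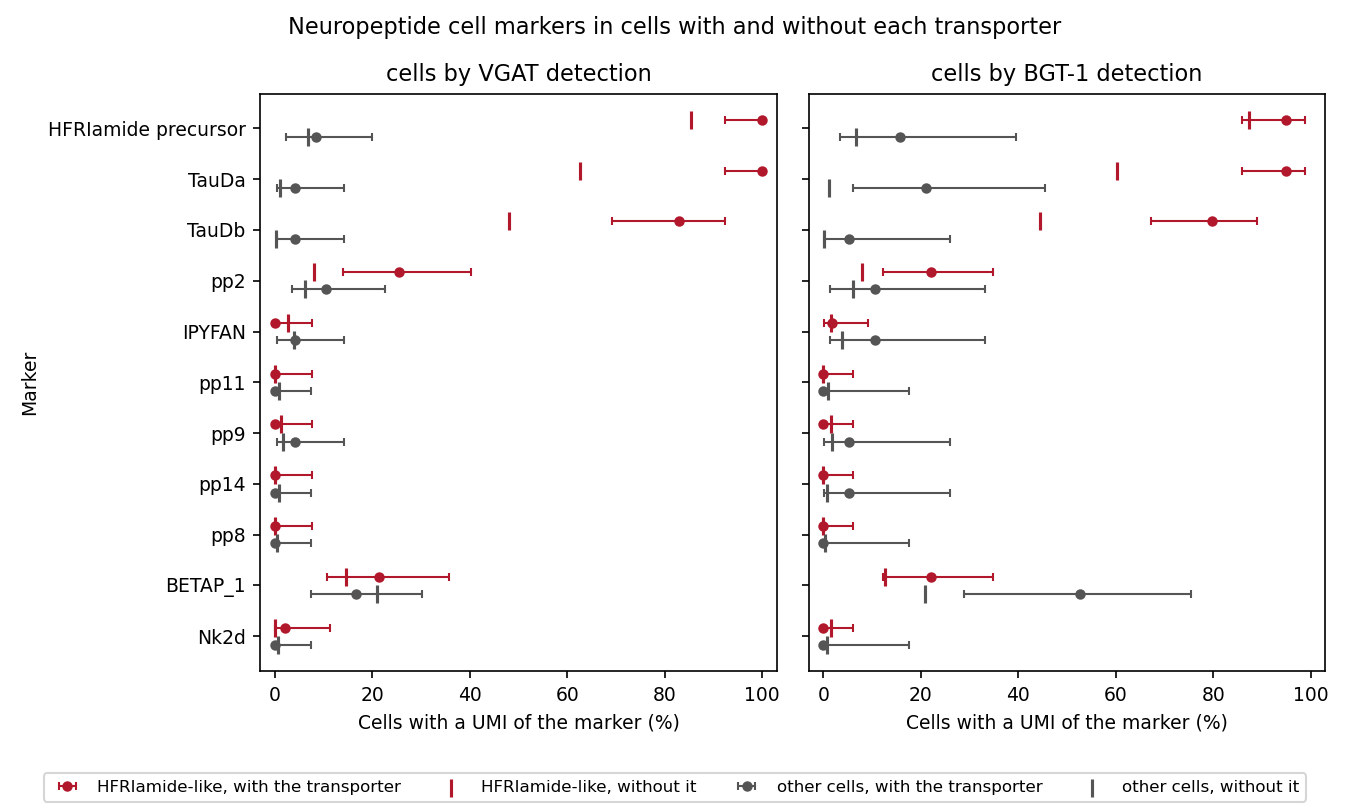
Percent of cells with a UMI of each neuropeptide cell marker, for cells with the transporter (points, with exact 95% binomial intervals) and without it (vertical ticks), in HFRIamide-like cells and in other cells, split by VGAT (left) and BGT-1 (right). The HFRIamide precursor and TauDa reach 100% of HFRIamide-like cells with VGAT, and pp11, pp14 and pp8 are at 0 in HFRIamide-like cells.

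Genes annotated as receptors of GABA were found in few HFRIamide-like cells and also in small shares of all other cells. GABBR2-like (XLOC_003734) is named for likeness to a subunit of the metabotropic GABA receptor, and its ligand was not measured. It was in 0 of 122 HFRIamide-like cells, which allows up to 2.46%, against 104 of 14244 other cells. Of these 104 cells 75 were GLWamide-like, and the mean share of other cells over samples was 0.688%. GABRB1-like (XLOC_000357), named for likeness to a subunit of the GABA-gated chloride channel, was in 3 of 122 HFRIamide-like cells against 498 of 14244 other cells. Of these 498 cells 144 were QYFamide-like, and the mean shares over samples were 1.85% of HFRIamide-like and 3.46% of other cells. Such counts in 122 cells do not show a lower share in the type. A further annotated amino acid transporter gene, XLOC_008543, was in 0 of 122 against 369 of 14244 cells.

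Across the 29 clusters, genes whose mean levels were among the most like those of VGAT were TauDb (Pearson r 0.92), the homeobox gene UNC4 (0.90), ROMT-like (0.88) and the unannotated gene MSTRG.15728 (0.88), among 13939 genes with 50 UMIs or more. For BGT-1 they were XLOC_045596 (0.82), the peptide GPCR XLOC_002325 (0.79), XLOC_030924 (0.75), XLOC_038890 (0.71) and XLOC_041092 (0.69). Of these, XLOC_041092 was higher in QYFamide-like cells (232 CPM) than in HFRIamide-like cells (56.3 CPM). VGAT and BGT-1 correlated with each other at 0.63, which was rank 10 for BGT-1 and rank 95 for VGAT. These values are over clusters that share libraries and differ in depth, and these 4 genes near VGAT were high in the HFRIamide-like cells and in cluster 28, where VGAT rested on 1 UMI and BGT-1 had 0.

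In the coral Pocillopora acuta, the gene that the study lists as the ortholog of XLOC_033747 (XP_027045805.1) gave 0 UMIs in 4809 cells of colony C3 and 0 in 4925 cells of colony C6, which allows shares of cells with a UMI of up to 0.0624% and 0.0609%, at medians of 820 and 766 UMIs per cell. The study mapped these reads to the genome of Pocillopora damicornis, and the part of mapping in the counts of 0 was not tested. A related gene annotated as VIAAT-like (XP_027037249.1), another name for VGAT, gave 48 UMIs in 21 cells of colony C3 (8.23 CPM) and 49 UMIs in 28 cells of colony C6 (8.83 CPM). It was found with the GLWamide precursor in 2 cells of each colony, where the shares give 0.0786 and 0.171 cells, and with the HFRIamide precursor in 0 cells of either. Each colony counts as 1 sample, and no test was made.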

How the data were processed

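Clytia reads from 10x Genomics libraries were mapped by the authors with STARsolo (version not given in the sources used here), and the deposited values are UMI counts for each gene in each barcode, not normalized. Cells were kept from 300 to 75000 UMIs, from 200 to 5000 genes and up to 20% mitochondrial UMIs. For Pocillopora the upper limits were 20000 UMIs, 4000 genes and 5%.

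Log-scaled counts (22 principal components, Harmony-type integration rewritten here) were clustered with scanpy 1.11.5 and leidenalg 0.10.2 at resolution 1 with 50 neighbors, and mixed clusters were divided again at resolution 0.5. Of 3 clusters without a unique marker, that with the smallest number of markers was dropped. A type was named when at least 3 and 50% of its listed genes, VGAT and BGT-1 not among them, exceeded 4 times the CPM of other cells (2 times for i-cell-like cells). The clusters were rebuilt and need not match those of the study.

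UMIs were summed per biological sample and tested with edgeR 4.0.16 (TMM, quasi-likelihood, low-count filter, Benjamini-Hochberg adjusted p under 0.05), with the sample as a block since both sides of each comparison share a library. DESeq2 1.42.0 was an alternative. The edgeR fits were tried on simulated counts, and DESeq2 was not. With the block, p-values set the difference between the sides within a sample against its spread over these samples. Genes named are the 2 members, the 13 other listed genes of HFRIamide neurons, the neuropeptide precursors, neural and GABA-related genes, and the 5 genes most like each member, of which 1 is not reported here. Members and lists were chosen with earlier results of these data known. Sequences and positions were not used here.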

Additional observations from a re-analysis of the deposited data

How the results depend on the processing

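Of 179 alternative values computed, 17 moved beyond the interval or spread of the reported value, 1 lost its call and none reversed. The other 161 include the counts of 0 members called in the 6 other types, where most fits had neither gene past the filter on low counts, and values within a wide interval, such as VGAT in the methanol sample at 1.88 CPM when thinned and 3.17 CPM unthinned. The fold change of HFRIamide-like over other cells was 7.66 to 8.09 for VGAT and 8.93 to 9.44 for BGT-1 when 1 sample was left out. With cells chosen by 3 or more HFRIamide precursor UMIs alone it was 7.15 for VGAT and 8.11 for BGT-1, and these cells include some from other clusters. Within HFRIamide-like cells, VGAT by BGT-1 detection was 2.20 to 3.01 and BGT-1 by VGAT detection 1.31 to 3.09 when 1 sample was left out. Without the replicate block, that is with the pairing of both sides of a sample dropped, VGAT by BGT-1 detection kept 2.54 (adjusted p = 0.067, edgeR) and lost its call, and over all genes the calls in that split numbered 0 in place of 65 (43 with no low-count filter). In the split by VGAT, 5 genes were called by edgeR and 27 by DESeq2, and 37 by edgeR without the 52 hpf sample. BGT-1 by VGAT detection was called in none of its alternatives (adjusted p = 0.055 by DESeq2, 0.064 to 0.163 by edgeR with 1 sample left out). In the 6 other types 0 of 2 members were called in any of 72 fits, with a lowest adjusted p of 0.0756 for VGAT by edgeR. Over all genes, calls without the replicate block numbered 3109 of Nk2d-like cells (5539 with it), 6000 of i-cell-like cells (9061) and 1781 of neurosecretory-like cells (3239). Neurosecretory-like calls were 1852 without the 66 hpf sample and 2139 without the ACME sample, and mucous-like calls (2843) were 1825 by DESeq2, 754 without the ACME sample and 1362 without the methanol sample.

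Thinned to 500 UMIs per cell, VGAT was found in 0.175, 0.0444, 0.245 and 0.0942% of cells and BGT-1 in 0.349, 0.0444, 0.0817 and 0.141% at 66 hpf, at 52 hpf, in the ACME and in the methanol sample. The thinned levels were 3.93 and 0.888 CPM of VGAT and 7.43 and 0.888 CPM of BGT-1 at 66 hpf and 52 hpf, and 1.63 CPM of BGT-1 in the ACME sample. The levels at 52 hpf are from 1 UMI. BGT-1 was found in 36.5 to 47.4% of VGAT cells when 1 sample was left out, in 30% when thinned and, with 3 UMIs or more of BGT-1 required, in 16.8%. Shares thinned or held to more UMIs lie lower by construction. At a median depth of 3271 UMIs in HFRIamide-like cells, a cell without a UMI is not shown to lack the transcript.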
